A study of Mus musculus with 2 samples.

Results

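The 10 microRNA genes described here, all known from the blood system, were Mir142, Mir223, Mir155, Mir150, Mir146, Mir15a, Mir17, Mir21a, Mir22 and Mir191, chosen by name from the 2202 microRNA genes of the GENCODE vM21 mouse annotation. Peaks of Myb, the transcription factor that sustains immature blood cells, were assigned to a gene when the summit lay within 20 kb of the precursor. This gave 36 of the 25793 peaks (build mm10). MicroRNAs are short RNAs cut from hairpin precursors, first by Drosha in the nucleus and then by Dicer in the cytoplasm. Loaded into an Argonaute protein, a microRNA pairs through its seed, bases 2 to 8, with messenger RNAs and lowers their output. In blood they tune lineage choice and inflammatory signaling, and many precursors lie inside a longer host transcript whose promoter drives them.

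The chromatin for ChIP-Seq came from WT mouse bone marrow depleted of mature lineages (Lin–), which leaves mainly hematopoietic stem and progenitor cells. A Myb antibody was used for 1 library and nonspecific rabbit IgG for the other, with no replicate of either. The cells were a mixture with a purity over 80%, which a peak list cannot check, since it holds no expression values. A summit's height therefore cannot tell a larger share of bound cells from stronger binding in each cell.

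The mature sequences below are from RefSeq (build GRCm38.p6), with the seed in capitals. They show which of the microRNAs made at these loci can pair with the same messenger RNAs. For each gene 1 arm is given, with the cluster partners that repeat a seed. For Mir150 it is the 3p arm, because the reference used held no sequence of miR-150-5p. Among the 32 arms of the 10 genes and their partners with a sequence here, 3 seeds occurred in more than 1 microRNA. These were AGCAGCA in miR-15a-5p and miR-16-5p, AAAGUGC in miR-17-5p and miR-20a-5p, and GUGCAAA in miR-19a-3p and miR-19b-3p. Each shared seed lay within a single cluster.
mmu-miR-142a-3p: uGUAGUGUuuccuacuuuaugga
mmu-miR-223-3p: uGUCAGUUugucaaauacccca
mmu-miR-155-5p: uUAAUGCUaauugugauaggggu
mmu-miR-146a-5p: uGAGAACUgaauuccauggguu
mmu-miR-150-3p: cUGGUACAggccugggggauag
mmu-miR-15a-5p: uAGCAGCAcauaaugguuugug
mmu-miR-16-5p: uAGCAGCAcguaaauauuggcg
mmu-miR-17-5p: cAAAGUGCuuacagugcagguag
mmu-miR-20a-5p: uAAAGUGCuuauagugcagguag
mmu-miR-19a-3p: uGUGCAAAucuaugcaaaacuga
mmu-miR-19b-3p: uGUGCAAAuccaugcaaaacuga
mmu-miR-21a-5p: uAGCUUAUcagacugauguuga
mmu-miR-22-3p: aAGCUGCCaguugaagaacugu
mmu-miR-191-5p: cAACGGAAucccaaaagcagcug

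All 10 genes had at least 1 Myb peak, against 36.6% of annotated microRNA genes (807 of 2202, the 10 included). The 10 were chosen with earlier results of these data known. They held 1 to 7 peaks each, with a mean of 3.6 and a median of 3.5, whereas the mean over all microRNA genes was 1.00 and the median was 0. The share among all microRNA genes depended on their surroundings. It was 58.5% of the 1174 with a protein-coding start site within 20 kb and 11.7% of the 1028 without one. A protein-coding start here was that of any annotated transcript of a protein-coding gene, coding or not. Mir223, Mir155, Mir146, Mir15a and Mir17 belonged to the second set, and Mir142, Mir150, Mir21a, Mir22 and Mir191 to the first. At Mir21a the 4 such starts were internal ones of its host Vmp1, of transcripts annotated as processed transcripts. Its place in the first set rests on those alone.

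**Figure D1:**
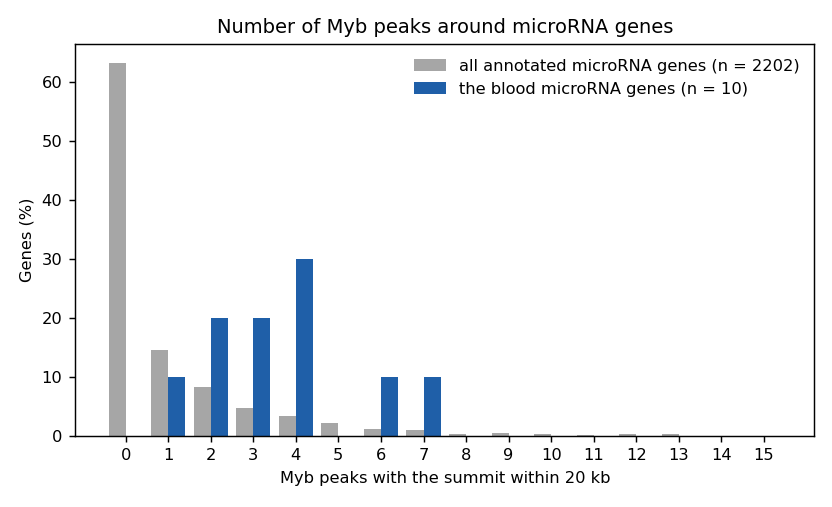
Percent of genes (vertical axis) by the number of Myb peaks with the summit within 20 kb (horizontal axis), for all 2202 annotated microRNA genes (gray) and the 10 blood microRNA genes (blue). Most microRNA genes had 0 peaks, while the 10 genes had between 1 and 7.

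The peaks stood somewhat above the rest of the list in height. Fold enrichment was the Myb pileup at the summit over the IgG background, with a small constant added to both. It had a median of 5.43 (quartiles 4.03 and 7.81, range 2.01 to 24.3) over the 36 peaks. Over all 25793 peaks the median was 4.51 (quartiles 3.73 and 5.95). The 36 summits were covered by 12 to 101 reads, with a median of 21 against 18 over all peaks, so that a single summit was imprecise. Intervals below are exact Poisson 95% intervals on those reads, or the fold they give with the IgG background held fixed, and cover counting error only. A summit of at least 10-fold was found at 6 of the 10 genes (Mir142, Mir223, Mir150, Mir146, Mir21a and Mir191), against 3.95% of all microRNA genes and 6.73% of those with a protein-coding start nearby. It was reached by 7 of the 36 peaks (19.4%, exact binomial 95% interval 8.19 to 36.0), against 4.47% of all peaks. This limit was set after the values were seen. Among microRNA genes without a nearby protein-coding start the share was 0.778% (8 of 1028), and Mir223 and Mir146 were 2 of those 8.

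**Figure D2:**
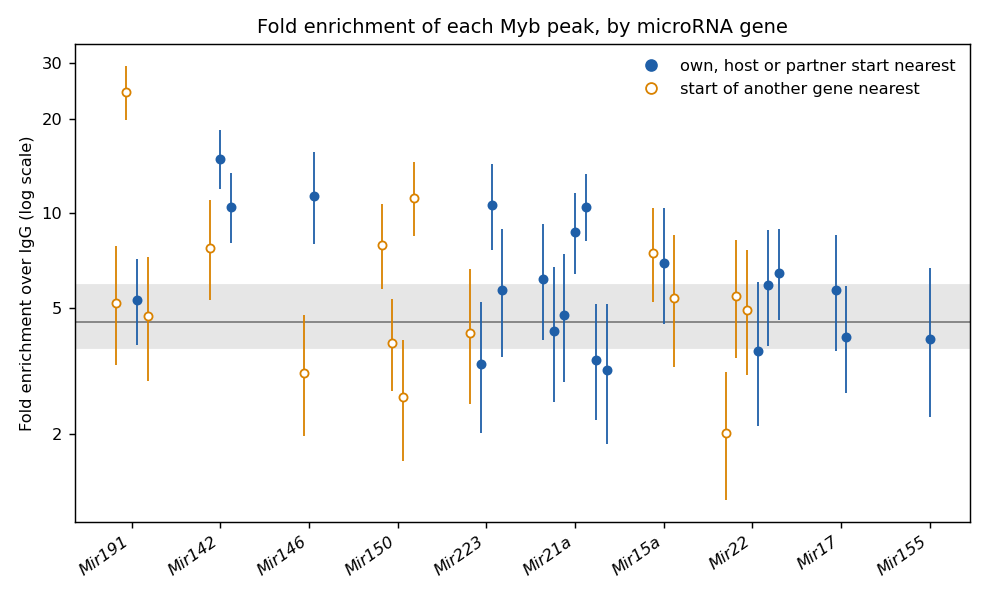
Fold enrichment over IgG of each of the 36 Myb peaks (vertical axis, log scale), grouped by microRNA gene and ordered by the gene's strongest peak. Bars are 95% counting intervals; the gray line and band are the median and quartiles of all 25793 peaks (4.51, 3.73 to 5.95). Filled points have the start of the microRNA, its host or a cluster partner as the nearest start, open points that of another gene; the highest point, at Mir191, is an open one.

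A Myb peak lay near the outermost start of every host gene. Of the 10 precursors, 8 lay inside a host on the same strand, and Mir150 and Mir146 had none in the annotation. Mir22 lay in both Mir22hg and Tlcd2, making 9 hosts, and every one had a summit within 3 kb of its outermost start. The distance ranged from 22 bp at Mir155hg to 1365 bp at Tlcd2, which shared its peak with Mir22hg. In the whole annotation, 16.2% of noncoding genes of the host types (lincRNA, antisense and processed transcript) and 36.5% of protein-coding genes had such a summit. The fold at these host starts ran from 4.0 at Mir155hg to 24.3 at 4833445I07Rik. The summits at the outermost Dleu2 and Vmp1 starts lay beyond 20 kb from the precursor and were not among the 36. Of the 36 summits, 26 were upstream of the precursor, 10 were downstream and 0 were within it. The start of the microRNA, its host or a cluster partner was the nearest start for 21 (the partner, Mir425, for 1), and another gene's start for 15, of which 11 were protein-coding.

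**Figure D3:**
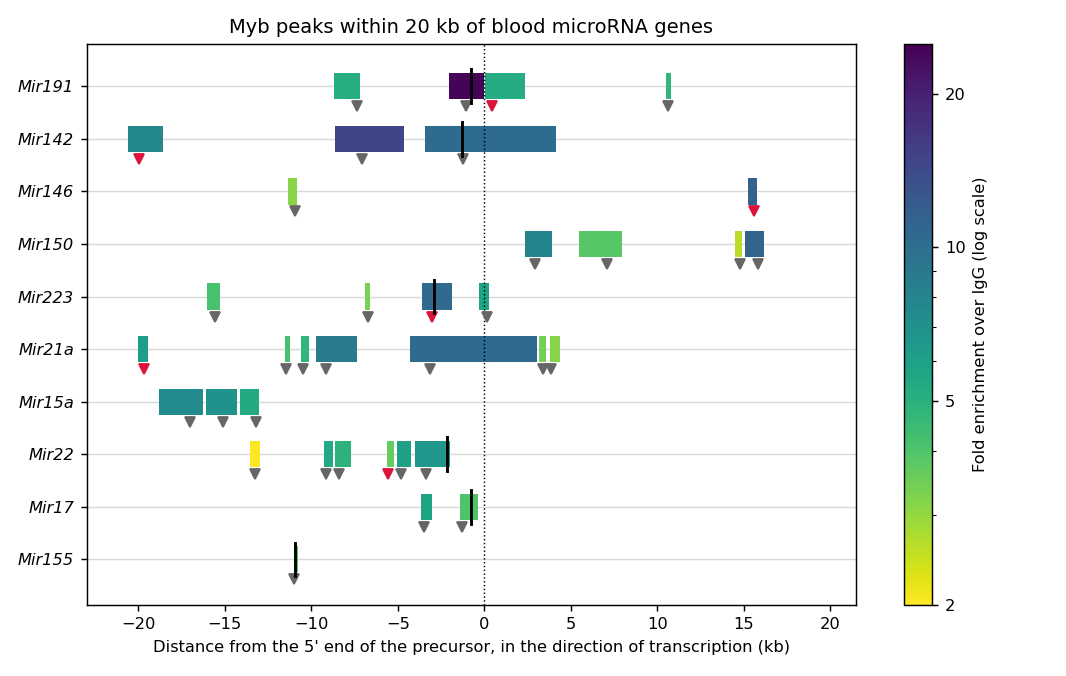
Myb peaks around the 10 genes, aligned at the 5′ end of the precursor (dotted line) and drawn to scale in kb in the direction of transcription; color is fold enrichment over IgG (log scale), black ticks are host starts within the window and triangles are summits, red where a Myb word lay within 50 bp. Peaks are drawn mostly to the left of the line, except at Mir150, where all 4 lie to its right.

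Mir142 makes a microRNA found in nearly all blood cells and in few other tissues. Its precursor (chr11:87756864-87756927, plus strand) lay in the lincRNA Mir142hg, 1287 bp past its start. Of its 3 peaks the strongest was intergenic, 5761 bp before the Mir142hg start, at 14.9-fold (86 reads, 68.8 to 106). A second, of 10.5-fold (60 reads, 45.8 to 77.2), had its summit 54 bp from the Mir142hg start and spanned 7615 bp, the precursor included. It was the fifth-widest peak of the whole list. The third, of 7.77-fold (29 reads, 19.4 to 41.6), lay 685 bp from the start of Supt4a, a subunit of the DSIF elongation complex. The parts of these 3 peaks inside the window added up to 13048 bp. That was 32.6% of the window, the highest coverage of the 10 genes, followed by 30.0% at Mir21a.

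Mir223, the granulocyte and monocyte microRNA, was the one member on the X chromosome. Its precursor (chrX:96242817-96242926, plus strand) lay 2891 bp past the start of its host, F630028O10Rik, annotated as antisense. The strongest of its 4 peaks had its summit 148 bp from that start, at 10.6-fold (40 reads, 28.6 to 54.5). A peak of 5.72-fold (17 reads, 9.90 to 27.2) covered the precursor itself, with the summit 65 bp beyond it, in a host exon. The others, of 4.18-fold (15 reads) and 3.33-fold (16 reads), were intergenic and further upstream. On the X chromosome, 13 of 142 microRNA genes (9.15%) had a peak, and the summit at the F630028O10Rik start was the strongest near any of them. Of the 376 X peaks, 9 were stronger.

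Mir155, Mir146 and Mir21a make microRNAs that respond to inflammatory signals. Mir155 amplifies myeloid and lymphoid activation, and Mir146 restrains NF-κB signaling through Traf6 and Irak1. Mir155 (chr16:84714140-84714204, plus strand) had a single peak, the fewest of the 10 genes. It was 247 bp wide, 22 bp from the Mir155hg start and 10995 bp upstream of the precursor. At 4.0-fold (12 reads, 6.20 to 20.96) it had the fewest reads of the 36 and lay below the median of all peaks. The summit was thus at the host start, on a height with a wide interval.

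Mir146 (chr11:43374397-43374461, minus strand) had 2 peaks of different fold. The stronger, of 11.3-fold (35 reads, 24.4 to 48.7), was intergenic, 15505 bp downstream of the precursor, and no annotated start was nearer to it than that of Mir146. The weaker, of 3.12-fold (19 reads, 11.4 to 29.7), lay 10929 bp upstream and 92 bp from the start of the lincRNA Gm12148. Their read intervals overlapped. Their fold intervals, 8.02 to 15.6 and 1.96 to 4.77, did not, but these hold the IgG background fixed, at 1.46 and 4.0, and leave out its own error.

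Mir21a (chr11:86584067-86584158, minus strand) had the most peaks, 7, of 3.17- to 10.5-fold. Among microRNA genes, 59 of 2202 had at least 7. Its precursor lay near the 3′ end of Vmp1, an autophagy gene whose outermost start was 99678 bp away, and Vmp1 or Mir21a itself held the nearest start for all 7 summits. The strongest, of 10.5-fold (67 reads, 51.9 to 85.1), was 302 bp from an internal Vmp1 transcript start in a Vmp1 intron, 3138 bp upstream of the precursor. That peak was 7378 bp wide, the sixth-widest of the list, and covered the precursor. A second intronic summit, 9155 bp upstream, reached 8.71-fold (44 reads, 32.0 to 59.1). The outermost Vmp1 start, beyond the 20 kb limit, had a peak of 4.95-fold (18 reads, 10.7 to 28.4) at 130 bp, lower than both.

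Mir150 rises in maturing lymphocytes and is the textbook repressor of Myb itself. Its precursor (chr7:45121757-45121821, plus strand) had no host, and its window held 37 transcript starts of protein-coding genes, the most of the 10 genes. All 4 peaks were downstream, each nearest to a protein-coding start. One was at the ribosomal protein gene Rpl13a, at 120 bp with 3.88-fold (34 reads, 23.5 to 47.5). A pair was at Flt3l, the ligand of the Flt3 receptor of progenitors, with 11.2-fold (53 reads, 39.7 to 69.3) at 1167 bp and 2.60-fold (19 reads, 11.4 to 29.7) at 118 bp. The last had a q value of 0.053. The strongest summit near Mir150 was thus at Flt3l, 15778 bp past the precursor.

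Mir15a and Mir17 belong to clusters with opposite roles, the first restraining the cell cycle and Bcl2, the second promoting growth of progenitors. Mir15a (chr14:61632027-61632110, minus strand, beside Mir16-1) lay in Dleu2, whose outermost start was 50263 bp upstream. Its 3 peaks were 13184 to 17013 bp upstream, all within Dleu2, at 7.47-fold (33 reads, 22.7 to 46.3), 6.97-fold (21 reads, 13 to 32.1) and 5.40-fold (16 reads, 9.15 to 26.0). The first was 301 bp from an internal Dleu2 start and 173 bp from the lincRNA Gm27017. The outermost Dleu2 start, outside the window, had a peak of 6.41-fold (32 reads, 21.9 to 45.2) at 1189 bp. The read intervals of all 4 overlapped.

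Mir17 (chr14:115043671-115043754, plus strand) opens a cluster with Mir18, Mir19a, Mir20a, Mir19b-1 and Mir92-1, 792 bp past the start of Mir17hg. One peak covered that start, with the summit 477 bp before it, at 4.05-fold (25 reads, 16.2 to 36.9). The other, 2689 bp before the start, was narrower and reached 5.72-fold (21 reads, 13 to 32.1). The wider peak had more reads and a lower fold, since fold divides by the IgG background, 4.0 at its summit against 2.0 at the other.

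Mir22, expressed widely in blood, had 6 peaks, all upstream of the precursor (chr11:75463716-75463810, plus strand). The 3 nearest the Mir22hg start were of 6.47-fold (35 reads, 24.4 to 48.7) at 1189 bp, 5.93-fold (21 reads) at 2628 bp and 3.67-fold (13 reads) at 3366 bp. The strongest spanned the starts of both hosts. The other 3 were nearest to Wdr81, a gene of endosomal trafficking, at 5.46-fold, 4.95-fold and 2.01-fold. The last, with 17 reads over an IgG background of 6.0, had a q value of 0.496 and was the weakest of the 36.

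Mir191 (chr9:108568319-108568392, plus strand, beside Mir425) had the highest summit, 24.3-fold (101 reads, 82.3 to 123), ranked 12 of 25793 by fold. It lay 163 bp from the start of Ndufaf3, a mitochondrial complex I assembly factor, and 262 bp from that of the host lincRNA 4833445I07Rik. By strongest summit Mir191 was 4th among all 2202 microRNA genes. A neighboring peak of 5.30-fold (40 reads, 28.6 to 54.5) began inside the Mir191 precursor, overlapping its 3′ end alone, with the summit 5 bp from the Mir425 start, over an IgG background of 5.0. Peaks at Impdh2, the enzyme of guanine nucleotide synthesis, and at Wdr6 reached 5.21-fold (20 reads) and 4.72-fold (18 reads). Mir191 thus had the strongest Myb summit of the 10 genes, in a peak that spanned the starts of both its host and a protein-coding neighbor and cannot be assigned to either.

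The IgG background at the 36 summits ran from 1.46 to 6.0, with a median of 2.19 against 2.0 over all peaks. The value 1.46 was also the lowest of the whole list, and was the background of the 11.3-fold Mir146 summit. The same 1.46 was the background of the 6.97-fold and 5.40-fold Mir15a summits and of the 5.72-fold Mir223 summit, on other chromosomes. Whether it came from IgG reads at any of these places was not examined. The summits with the highest background, at Wdr81 and Rpl13a, had folds of 2.01 and 3.88, and the part of the background in them was not tested. At the edge of the 20 kb window, the outermost summits inside were at 19997 bp (Mir142, 7.77-fold) and 19654 bp (Mir21a, 6.18-fold). The 4 summits between 20 and 25 kb were at 21280 bp (Mir142, 3.50-fold), 21451 bp (Mir155, 3.33-fold), 22853 bp (Mir22, 6.17-fold) and 24552 bp (Mir223, 13.8-fold, 43 reads). For Mir223 the strongest summit in the wider neighborhood was thus just outside the limit.

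The peaks were broad and often at start sites. Their median width was 865.5 bp against 577 bp over all peaks, and 10 of 36 (27.8%, exact binomial 95% interval 14.2 to 45.2) were wider than 2 kb, against 3.36%. That limit was also chosen after the widths were seen. A start site of any gene lay within 3 kb of 27 summits (75%, 57.8 to 87.9), against 57.6%. Starts of microRNA genes were counted, and the 36 peaks were picked for lying near such genes. That choice can itself raise this share above that of all peaks. The Mir223 summit beside the precursor, for example, was 174 bp from the Mir223 start and 3025 bp from the nearest host start. With starts of protein-coding genes alone the order turned, at 44.4% against 51.4%. Both shares of the 36 peaks included 2 Mir21a peaks near internal Vmp1 starts of transcripts annotated as processed transcripts. They counted in the second because Vmp1 is a protein-coding gene. In height, 24 summits (66.7%, 49.0 to 81.4) exceeded the median fold of all peaks, against 49.8%. Peaks near 1 gene share a locus, so these intervals, which treat the 36 as independent, are too narrow.

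**Figure D4:**
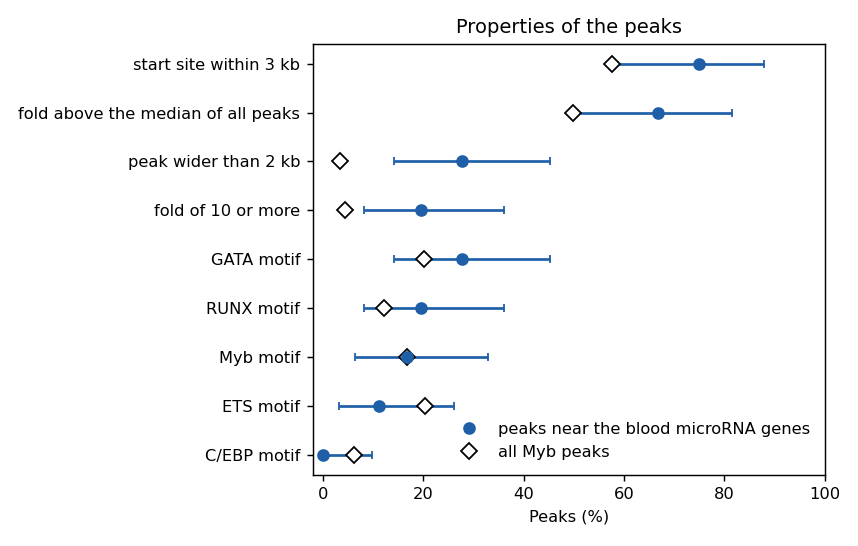
Percent of the 36 peaks near the blood microRNA genes (blue, bars are exact binomial 95% intervals) and of all 25793 Myb peaks (diamonds) with each property; motifs are words within 50 bp of the summit. The share of peaks wider than 2 kb, 27.8% against 3.36%, was the furthest apart, while for the Myb motif both shares were 16.7%.

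Words bound by Myb were present at the same share of these summits as of all summits. The word searched on both strands was NAACNG, with C or T as its first base and G or T as the base before the last, within 50 bp of the summit. At least 1 was present at 6 of 36 summits (16.7%, 6.37 to 32.8), against 16.7% of all summits. Of the strongest peak of each gene, 2 of 10 held one, those of Mir146 and Mir223. Words of other blood factors were counted in the same window, and each of them can share bases at its end with a Myb word. The GATA word NGATAN, with A or T first and A or G last, was at 27.8% of the 36 summits (14.2 to 45.2) against 20.1% of all summits. The RUNX word TGNGGT, with C or T for N, was at 19.4% (8.19 to 36.0) against 12.2%. The ETS word NGGAAG, with A or C for N, was at 11.1% (3.11 to 26.1) against 20.4%. The C/EBP word TTGCNNAA was at 0 of 36, which allows a share of up to 9.74%, against 6.16%. All 4 intervals included the share over all summits. A match is a description and not a site, and its absence says only that these letters are not in the window.

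The 101 bases around the 6 summits with a Myb word are given below on the plus strand of mm10, with the word in capitals. Each is on the minus strand, so CCGTTG reads CAACGG and CAGTTA reads TAACTG. The strongest Mir142 summit, which held none, follows for comparison. The word covered the summit base at the distal Mir142 peak, was 7 bp away at Mir21a, and was 33 to 43 bp away at the other 4. At Mir191 it lay in the peak with its summit by Mir425, not in the strongest one.
Mir146 at chr11:43358842-43358942: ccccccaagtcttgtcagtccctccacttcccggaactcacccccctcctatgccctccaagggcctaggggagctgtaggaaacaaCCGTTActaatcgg
Mir223 at chrX:96239728-96239828: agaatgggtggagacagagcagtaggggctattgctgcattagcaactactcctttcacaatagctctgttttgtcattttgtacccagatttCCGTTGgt
Mir142, distal, at chr11:87736817-87736917: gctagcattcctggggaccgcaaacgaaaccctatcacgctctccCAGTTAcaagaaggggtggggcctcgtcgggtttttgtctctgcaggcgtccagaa
Mir21a at chr11:86603762-86603862: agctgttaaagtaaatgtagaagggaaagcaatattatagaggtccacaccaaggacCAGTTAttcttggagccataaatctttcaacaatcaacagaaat
Mir22 at chr11:75458123-75458223: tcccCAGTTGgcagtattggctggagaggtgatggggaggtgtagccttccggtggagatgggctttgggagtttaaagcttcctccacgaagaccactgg
Mir191 at chr9:108568722-108568822: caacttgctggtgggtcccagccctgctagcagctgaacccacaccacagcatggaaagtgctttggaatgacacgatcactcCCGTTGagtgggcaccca
Mir142, strongest, at chr11:87749766-87749866: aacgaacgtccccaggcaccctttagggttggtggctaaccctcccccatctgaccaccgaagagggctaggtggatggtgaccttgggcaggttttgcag

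The Myb messenger RNA was also searched for the seeds, since microRNAs act mainly through 3′ untranslated regions and Mir150 is known to act on that of Myb. The region in the longest coding transcript was 1241 bases, longer than 60.2% of the 21648 examined. Of 19 mature arms of the 10 genes, 3 had a match to bases 2 to 8, with 4 matches in all. The arm miR-150-5p was not among the 19, as its sequence was missing, so the search says nothing about its sites in Myb. Over the 19 arms, the share of untranslated regions with a match ran from 2.91% (miR-191-5p) to 19.5% (miR-15a-5p). How many of the arms match a typical region was not counted, so the 3 are no sign of an excess. For miR-155-5p there were 2 matches, from positions 18 and 451, against 8.01% of untranslated regions with at least 1. The seeds of miR-15a-5p (19.5% of regions) and miR-22-5p (9.59%) matched once each, from positions 710 and 1043. Of these, the miR-15a-5p seed is also that of miR-16-5p. The 30 bases around each match on chromosome 10 (minus strand, mm10) are given with the match in capitals, to be read against the seeds above. A seed match is no evidence of repression, and no RNA was measured.
miR-155-5p, chr10:21126141-21126170: catttccagaaaAGCATTAtggttttcaga
miR-155-5p, chr10:21125708-21125737: aaaaccaggagaAGCATTAttttgaatgtt
miR-15a-5p, chr10:21125449-21125478: agcctgtagtcaTGCTGCTagctagtgtca
miR-22-5p, chr10:21125116-21125145: ttttctgacttgGAAGAACattctctgtag

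A summit lay near most of the genes that make, load and modify microRNAs. Of 18, 16 had a summit inside or within 20 kb, against 58.6% of protein-coding genes and 40.1% of all genes, 73 peaks in all, while Dicer1 and Lin28b had none. A summit of at least 10-fold was present at 3 of them, against 7.28% of protein-coding genes. These windows include gene bodies and so differ in length. The highest fold was at Tut7, a terminal uridylyltransferase, with 19.5-fold (77 reads), although another gene, Etohd2, had the nearest start. Next were Tnrc6b, a partner of Argonaute, with 12.5-fold (42 reads) 25 bp from a Tnrc6b start, and Xpo5, the exporter of precursors, with 12.3-fold (48 reads) 183 bp from an Xpo5 start, with that of Polh nearer. The strongest summit was also within 1 kb of the gene's own start at, among others, Dgcr8 (8.54-fold), Ago1 (7.90-fold) and Ago2 (8.72-fold).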

How the data were processed

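ChIP-Seq of Myb and of an IgG control was done on Lin– bone marrow cells of WT mice, 1 library each, with groups taken from the sample titles. Per the submitters' processing notes, reads were handled with cutadapt 1.15, BWA 0.7.13, Picard and MACS2 2.1.1.20160309 on mm10. The deposited list of the Myb library gives each peak's fold enrichment, a ratio of Myb pileup to IgG background taken as the authors deposited it. Its p-value and q-value were deposited as −log10 values, and the deposited score was not used. A q value belongs to 1 peak in 1 library and says nothing of replication.

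Python 3.11.15, pandas 2.3.3 and scipy 1.17.1 were used, with GENCODE vM21 and the mm10 sequence. Reads over each summit were recovered from fold and p (within 0.002 on the −log10 scale in 100.0% of rows), after tests on simulated data. Library depth was not analysed here. The 10 genes, and the lists of 18 processing and 31 other microRNA genes, were chosen with earlier results of these data known. All 10 genes were named with their hosts, partners within 10 kb and each peak's nearest start; for the other lists, counts and the 3 genes with the highest fold were named, and others given were picked after their values were seen. A host overlapped the precursor on the same strand, and a promoter was within 3 kb of a start. With 1 library a group, no test was made, and backgrounds include the 10 genes. Alternatives were other q, window, promoter, motif and seed limits. The values of 1 peak near Mir150 are not reported here.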

Additional observations from a re-analysis of the deposited data

How the results depend on the processing

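The 36 peaks became 23 at a −log10 q of at least 5, 21 in a window of 10 kb and 60 in one of 50 kb. The median fold stayed between 5.35 and 6.97. A peak remained at 9 of the 10 genes at that q, losing Mir155, and at 7 within 10 kb, losing Mir146, Mir155 and Mir15a. The share of all microRNA genes with a peak was 25.7% at that q, 24.3% and 53.1% within 10 and 50 kb, and 40.0% with clusters counted once. The promoter share was 52.8% within 1 kb, 44.4% within 500 bp and 44.4% for protein-coding starts alone, where all peaks gave 41.6%, 31.9% and 51.4%, so that for protein-coding starts the order turned. The Myb word share was 5.56% within 25 bp, 36.1% within 100 bp and 61.1% for AACNG, against 8.68%, 30.0% and 54.3% of all summits. Seed matches in the Myb untranslated region rose to 9 with bases 2 to 7. The share of all untranslated regions with such a match ran from 7.70% (miR-191-5p) to 39.1% (miR-17-3p) over the arms. Of 52 alternatives, 38 stayed near their value and 14 moved, each with a limit or set that was itself wider or narrower. A count was called near within a ratio of 1.5. The fall from 10 genes to 7 within 10 kb, and from 16 processing genes to 12 at that q, thus counted as near. The change from 36.6% to 40.0% of microRNA genes counted as moved. No paired analysis was possible because each group had 1 library and no test was made. Depth limits single summits, of 12 to 101 reads.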

Other observations

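Beyond the 10 genes, 19 of 31 other microRNA genes known from blood had a summit within 20 kb, with 83 gene and peak pairs. The share was 36.6% of all microRNA genes, and 40.0% with clusters counted once. The 31 were counted singly, so clustered genes among them, such as Mir23a, Mir27a and Mir24-2, shared peaks. The strongest summit per gene had a median of 5.67-fold, beside 10.6-fold for the 10 genes and 5.72-fold for all microRNA genes with a peak, and 1 of the 31 reached 10-fold. That was Mir15b, the second locus with a miR-15 and miR-16 pair, at 10.3-fold (35 reads), nearest to the start of Smc4, a condensin subunit that is its host. The cluster of Mir23a, Mir27a and Mir24-2 followed with a peak of 8.05-fold (51 reads) 412 bp from Mir23a. Mir196b, within the Hoxa cluster, had the most peaks, 15, the strongest of 5.49-fold nearest to Hoxa9. Mir144 and Mir451a, the erythroid pair, had 3 peaks of up to 5.22-fold. No summit was listed for 12 genes, among them Mir181a-1, Mir181a-2, Mir125a, Mir125b-1 and Mir342.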
